A study of Mus musculus with 18 samples.

Results

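Myc, Max, Mxi1, Mxd1, Mxd3, Mxd4, Mnt and Mlx are transcription factor genes of the Myc, Max and Mxd network. The rule took them by name, as Myc with its partners and antagonists, and used no measured value, though the network was picked with earlier results of these data known. All 8 were found among the 32789 genes of the count table, and all 8 were among the 12900 genes that passed the filter on low counts. Their RNA was followed in alveolar macrophages, the resident phagocytes of the lung airspaces, from mice in which Vhl had been deleted together with Hif1a, with Hif2a (the gene Epas1), or with both.

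Myc binds DNA as a dimer with Max and raises transcription of genes for growth, ribosome production and nucleotide synthesis. The Mxd proteins (Mxi1, Mxd1, Mxd3 and Mxd4) and Mnt compete with Myc for Max and recruit the Sin3 and histone deacetylase corepressors to the same E-box sequence, while Mlx is the alternative partner that also joins some Mxd proteins and the glucose-responsive factors MondoA and ChREBP. Vhl directs the breakdown of HIF-1 alpha and HIF-2 alpha, the oxygen-labile subunits of the hypoxia-inducible factors, and HIF is known as a regulator of Mxi1 and of Myc activity in other cells.

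The 18 libraries form 6 groups of 3. The Vhl/Hif1a knockout (labelled CD11c-Cre Vhl-Hif1-KO), the Vhl/Hif2a knockout (CD11c-Cre Vhl-Hif2-KO) and the triple knockout (CD11c-Cre Vhl-Hif1-Hif2-KO) each have a control whose label names the same genes as flox-flox. All 6 groups therefore share floxed Vhl, and all 3 knockouts share Vhl deletion, so a double knockout keeps the other HIF alpha gene and the triple knockout has neither. No treatment and no age are given. CD11c-Cre acts in every cell that has expressed CD11c, which includes dendritic cells as well as alveolar macrophages, and the control labels do not say whether Cre was absent. The cells came from lung lavage by positive selection on CD11c beads. Nothing in the labels says whether the 3 libraries of a group are separate mice, so the p-values measure the spread between these libraries only.

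Total counts per library ran from 19230452 to 34015320. Vhl itself fell in each knockout, from group means of 12.9 to 18.7 CPM (counts-per-million, scaled by the TMM method) in the controls to 2.20 to 2.88 CPM in the knockouts. Hif1a and Epas1 were not called lower in the knockouts named for them, but counts over a whole gene include exons outside the deleted part and do not check that deletion, and the labels do not name the exons. In the Vhl/Hif2a knockout, by contrast, Hif1a fell by 1.71 and Epas1 rose by 0.97 on the log2 scale (edgeR adjusted p = 4.3e-06 and 0.0019). Every one of the 10 alveolar macrophage markers was above 36.4 CPM in every library, whereas the T and NK cell and erythrocyte markers did not exceed 1.68 CPM and Ncr1 was at 0 in 18 of 18 libraries. Epcam, an epithelial marker, lay between 24.7 and 393 CPM, while the surfactant genes Sftpc and Sftpb did not exceed 0.743 CPM. One library stood apart: triple control 2 differed from its group mates by a mean chi-square of 131 and 133 per gene, against 9.04 to 45.4 for all other pairs within a group. Its 10 macrophage markers summed to 22081 CPM against 29983 and 29697 CPM in the other triple controls. Results that rest on this library are given with and without it.

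The 3 knockout comparisons set a wide range of backgrounds, given here as calls at an adjusted p under 0.05 in edgeR's quasi-likelihood test with Benjamini-Hochberg adjustment over all 12900 genes. In the Vhl/Hif1a knockout 3.64% of genes were called and 2.22% were called higher. The corresponding shares were 14.7% and 7.68% in the Vhl/Hif2a knockout. In the triple knockout 0.0388% were called, 4 genes higher and 1 lower, and DESeq2 called 5 higher and 6 lower. Unadjusted p-values under 0.05 were held by 13.2%, 26.3% and 11.5% of genes in these comparisons.

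Of the 8 network genes, 1 was called in the Vhl/Hif1a knockout and 1 in the Vhl/Hif2a knockout, and both times it was Mxi1, which rose. No network gene was called in the triple knockout with edgeR or with DESeq2, and 1 (Mnt) had an unadjusted p under 0.05 there. In each double knockout 2 members did, Mxi1 with Mxd1 in the first and Mxi1 with Myc in the second. With 8 genes, 1 call in either double knockout says nothing about the network as a group, beside 3.64% and 14.7% of all genes called. In the Vhl/Hif2a comparison it is near the background share. The median log2 fold change of the 8 was 0.11, 0.11 and -0.02 in the Vhl/Hif1a, Vhl/Hif2a and triple comparisons, beside -0.00066, 0.0032 and -0.01 over all genes tested. Taken without sign, the median change of a tested gene was 0.13, 0.18 and 0.17, so list medians of this size are small.

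**Figure D1:**
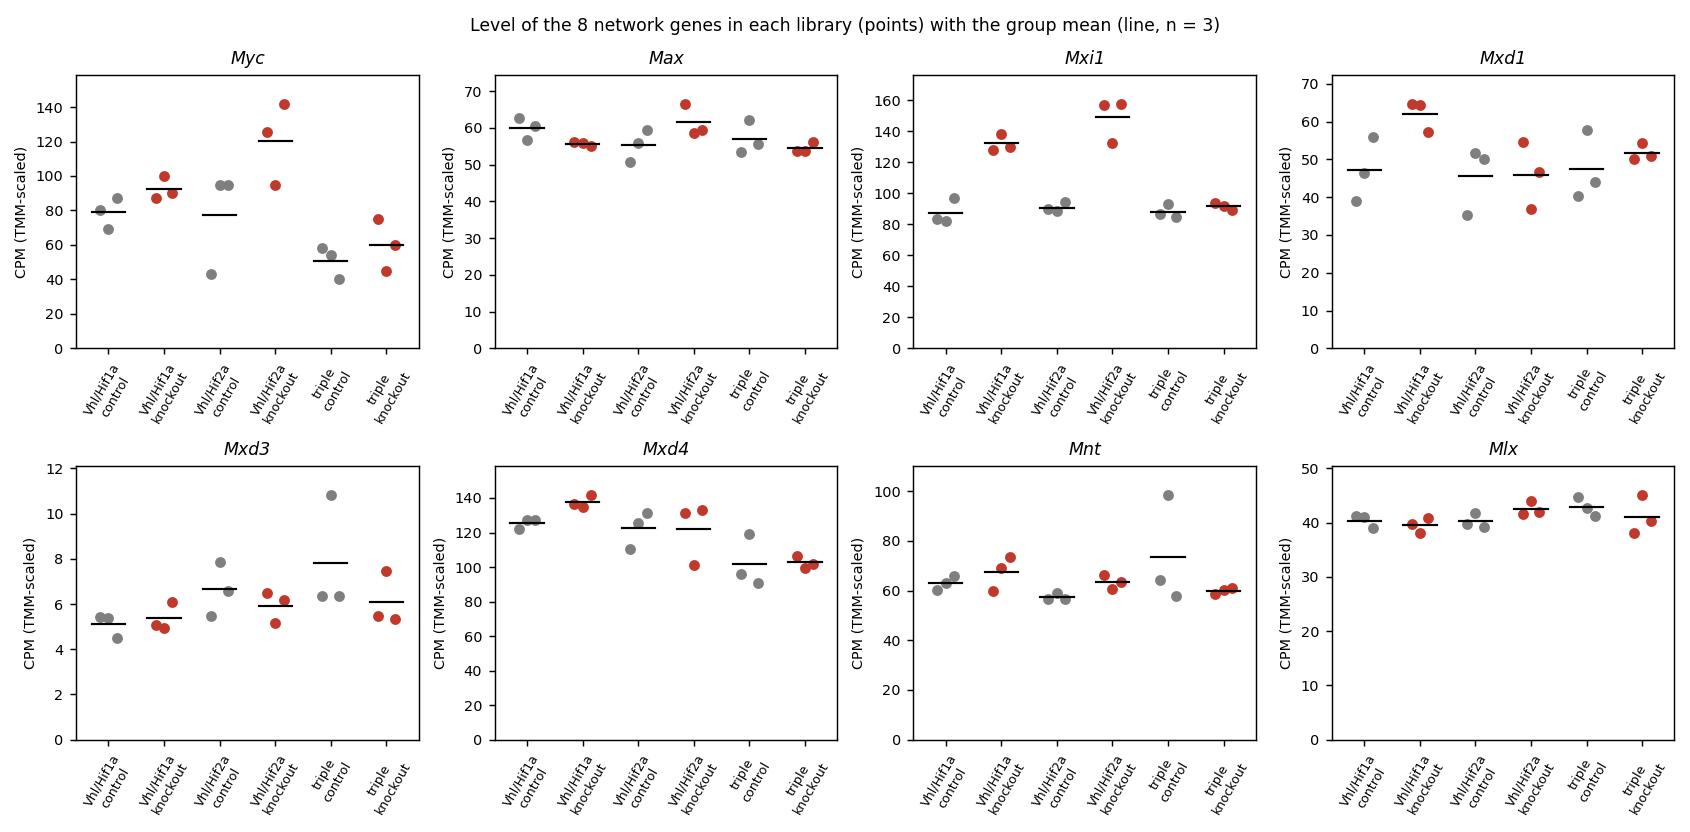
Level of each of the 8 network genes in CPM (vertical axis, from 0) in the 18 libraries, by group on the horizontal axis. Grey points are control libraries, red points knockout libraries and black lines group means. Mxi1 stood at 128 to 158 CPM in the 6 double-knockout libraries and at 81.9 to 96.6 CPM in the other 12.

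Mxi1 is encoded on the plus strand of chromosome 19 (GRCm38, 53310518 to 53375810, GENCODE M21) with 9 annotated transcripts. RefSeq start-site windows (GRCm38.p6) were held for 7 of the 8 genes. Myc had no entry. The windows of the first and second Mxi1 start sites are printed because Mxi1 is the network gene that changed. Each covers the 250 bases before the start on the plus strand. The first lies before the annotated span of Mxi1 and the second inside it. The first is chr19:53310256-53310505 and the second is chr19:53329163-53329412. Capitals mark a match to the core of the HIF binding element, searched on both strands as ACGTG and, as the second form of the core, GCGTG, or to the Myc and Max E-box CACGTG, whose letters hold ACGTG on each strand.
Mxi1 start 1: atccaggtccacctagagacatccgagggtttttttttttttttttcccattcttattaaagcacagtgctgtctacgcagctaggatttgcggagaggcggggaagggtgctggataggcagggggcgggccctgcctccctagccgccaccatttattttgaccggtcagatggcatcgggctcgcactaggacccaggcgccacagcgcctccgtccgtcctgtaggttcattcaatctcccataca
Mxi1 start 2: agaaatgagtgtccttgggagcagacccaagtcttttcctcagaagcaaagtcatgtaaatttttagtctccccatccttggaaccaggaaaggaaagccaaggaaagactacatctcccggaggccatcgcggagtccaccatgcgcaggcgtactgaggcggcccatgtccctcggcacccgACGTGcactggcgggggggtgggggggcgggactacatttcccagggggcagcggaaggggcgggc
The first window holds no match. The second holds 1 ACGTG, whose first base lies 66 bases before the start, and neither of the other motifs. The third Mxi1 window, which is not printed, also holds 1 ACGTG, with its first base 25 bases before the start. ACGTG occurs in 16.6% of all 32851 windows of this length and GCGTG in 28.2%, so 1 match is common. Either HIF core occurs in 38.6% of windows, and no binding was measured here. The windows of Mxd4, Mnt and Mlx each hold 1 CACGTG, a sequence found in 6.02% of all windows. That of Mnt also holds 1 GCGTG. The window of Mxd1 holds 2 GCGTG, and those of Max and Mxd3 hold no match.

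Mxi1, the Mxd protein first known as Max interactor 1, had nearly the same level in all 9 control libraries. In the Vhl/Hif1a controls it stood at 83.3, 81.9 and 96.6 CPM, and in the knockouts at 128, 139 and 130 CPM. The groups did not overlap, and the lowest knockout library was above the highest control. The rise was 0.60 ± 0.08 on the log2 scale (SE, n = 3 per group, 1.51-fold, edgeR adjusted p = 2.2e-04). In the Vhl/Hif2a controls the values were 89.5, 88.3 and 94.4 CPM, and in the knockouts 157, 132 and 158 CPM. Again every knockout library lay above every control, with knockout 2 the lowest of the 3. The rise was 0.71 ± 0.08 (1.64-fold, edgeR adjusted p = 1.1e-05). An exact two-sided permutation test of either comparison gave p = 0.1, which is the smallest that 3 against 3 libraries can give.

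In the triple knockout, where neither HIF alpha gene remains, Mxi1 stood at 93.5, 91.9 and 89.3 CPM against 86.9, 93.2 and 84.5 CPM in its controls. These ranges overlapped, and the difference was 0.05 ± 0.08 (95% interval -0.12 to 0.23, edgeR adjusted p = 0.74). The difference between effects was tested directly. The Mxi1 rise was larger in the Vhl/Hif2a knockout than in the triple knockout by 0.66 ± 0.12 (edgeR adjusted p = 0.0016), a contrast in which 7.99% of genes were called and 4.91% called higher. It was larger in the Vhl/Hif1a knockout than in the triple knockout by 0.54 ± 0.12 (edgeR adjusted p = 0.02), where 2.04% of genes were called and 1.5% called higher. This second call was lost when Vhl/Hif1a control 1 or 2, Vhl/Hif1a knockout 2, or triple knockout 2 or 3 was left out (edgeR adjusted p = 0.053 to 0.074), while the difference stayed between 0.50 and 0.64. Between the double knockouts the rises differed by 0.11 ± 0.12 (95% interval -0.13 to 0.36, edgeR adjusted p = 0.92), in a contrast with 2.44% of genes called and 10.5% at an unadjusted p under 0.05. No member was called in that contrast by edgeR or DESeq2, and 1 (Max) had an unadjusted p under 0.05.

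Mxi1 was one of 202 genes called higher in both double knockouts, which are 70.6% of those called higher in the Vhl/Hif1a knockout and 20.4% of those in the Vhl/Hif2a knockout. Of these, 119 also had both differences from the triple knockout called, as Mxi1 did. By size its rise ranked 224th of 286 and 536th of 991 among the genes called higher. The 6 HIF reference targets (Pgk1, Slc2a1, Bnip3, Ankrd37, Egln3 and Vegfa) gave larger changes, with 4 of 6 called higher in the Vhl/Hif1a knockout and 6 of 6 in the Vhl/Hif2a knockout. Their medians were 2.05 and 4.78, and the median was -0.26 with none called in the triple knockout by edgeR or DESeq2 (1 at an unadjusted p under 0.05). Pgk1, a glycolytic enzyme, separated the double knockouts with values of -0.10 and 3.45, whereas Mxi1 changed by 0.60 and 0.71. Of the 10 alveolar macrophage markers, 1 was called higher and 1 lower in the Vhl/Hif1a knockout, 4 higher and 2 lower in the Vhl/Hif2a knockout and 1 higher in the triple knockout (medians 0.16, 0.21 and 0.20). Their summed level, of which Chil3 gave the most at 14873 to 31432 CPM, lay higher in knockouts than in controls, at 32831 to 39554 against 28044 to 29454 CPM in the Vhl/Hif1a cross, 33888 to 36285 against 24964 to 28649 CPM in the Vhl/Hif2a cross and 32961 to 33647 against 22081 to 29983 CPM in the triple cross. The summed level of 5 monocyte markers lay higher in knockouts, at 32.1 to 39.1 against 17.1 to 21.7 CPM, 55.5 to 81.1 against 13.1 to 23.6 CPM and 23.4 to 25.5 against 12.4 to 18.4 CPM in the same order. Of these markers Itgam reached the highest level, at 4.58 to 59.9 CPM over the libraries. Ccr2 did not exceed 19.99 CPM, F13a1 14.7 CPM and Cx3cr1 1.41 CPM. Ly6c2 was at 0 in 9 of 18 libraries and did not exceed 0.125 CPM. Of the 4 monocyte markers tested, 2, 2 and 1 were called higher in the same order, and none lower. The sum of 6 neutrophil markers was 74.0 to 82.4 CPM in the Vhl/Hif1a knockouts against 148.8 to 164.8 CPM in their controls, 125.8 to 151.0 against 122.2 to 193.1 CPM in the Vhl/Hif2a cross and 145.2 to 162.3 against 127.4 to 135.5 CPM in the triple cross. Csf3r (24.5 to 82.2 CPM) and Mmp8 (29.3 to 95.6 CPM) gave most of it, while S100a9 did not exceed 1.29 CPM and Retnlg 0.749 CPM. The 6 markers split in direction, with 1 called higher and 3 lower in the Vhl/Hif1a knockout and 1 higher and 2 lower in the Vhl/Hif2a knockout. For 5 lung epithelium markers the sums were 26.1 to 45.6 CPM in the Vhl/Hif1a knockouts against 65.7 to 73.7 CPM in their controls. They were 292.8 to 348.2 against 255.7 to 400.8 CPM in the Vhl/Hif2a cross and 165.2 to 185.8 against 207.6 to 246.9 CPM in the triple cross. Epcam alone gave most of the epithelial sums, at 24.7 to 393 CPM over the libraries, while Scgb1a1 did not exceed 13.4 CPM and Sftpc 0.743 CPM. The part of these sums in the Mxi1 values was not tested. In bulk libraries such as these, fewer cells of a type and less RNA per cell cannot be told apart.

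**Figure D2:**
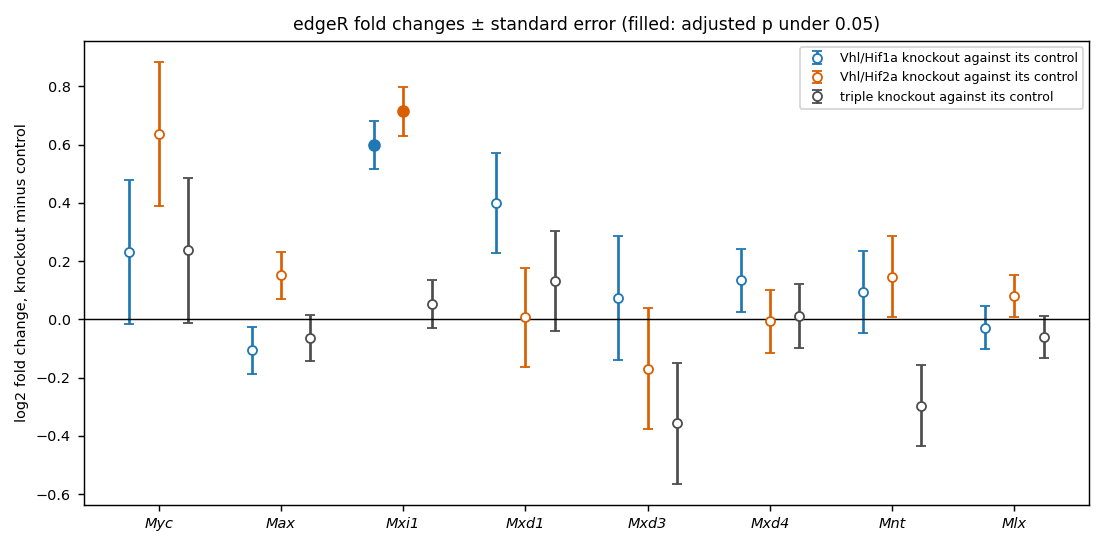
log2 fold change of each network gene (vertical axis, knockout minus control) with its standard error, for the Vhl/Hif1a (blue), Vhl/Hif2a (orange) and triple (grey) knockouts. Filled points passed the adjusted p of 0.05 and are Mxi1 at 0.60 and 0.71. Open points did not pass.

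Myc, the activator of the network (chromosome 15, 61985391 to 61990374, plus strand), was not called in any knockout comparison. In the Vhl/Hif2a controls it stood at 42.9, 94.7 and 94.8 CPM and in the knockouts at 125, 94.6 and 142 CPM. Knockouts 1 and 3 were above every other library of the series, but knockout 2 matched controls 2 and 3, and control 1 was far below both. The difference was 0.64 ± 0.25 (95% interval 0.11 to 1.16, unadjusted p = 0.0202 and edgeR adjusted p = 0.1). Without control 1 it was 0.35 (edgeR adjusted p = 0.34), and with any other library of these groups left out it lay between 0.50 and 0.82, never called. Myc in the Vhl/Hif1a cross was at 80.1, 69.3 and 87.3 CPM in controls and 87.5, 100.3 and 90.3 CPM in knockouts. The knockout libraries lay just above the controls, and the difference was 0.23 ± 0.25 (edgeR adjusted p = 0.8). The triple controls held 58.3, 54.2 and 39.9 CPM and the triple knockouts 75.0, 44.9 and 59.7 CPM, which overlapped (0.24 ± 0.25, edgeR adjusted p = 0.62). The difference between the Vhl/Hif2a and triple effects was 0.40 ± 0.35 (95% interval -0.34 to 1.14), so a difference of Mxi1's size was not detectable for Myc at this spread.

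Myc also varied between the control groups. All 3 triple controls were below all 3 Vhl/Hif1a controls (-0.64 ± 0.25, edgeR adjusted p = 0.14, in a comparison with 5.4% of genes called). Against the Vhl/Hif2a controls the difference was -0.61 ± 0.25 (edgeR adjusted p = 0.17, with 3.42% of genes called), and without Vhl/Hif2a control 1 it was -0.90 (edgeR adjusted p = 0.021). The labels do not say whether the crosses were handled together, so floxed alleles and handling cannot be told apart. No member was called between any pair of control groups by edgeR or DESeq2. The Vhl/Hif2a and Vhl/Hif1a controls differed in 0.341% of all genes. At an unadjusted p under 0.05 there were 0, 3 and 3 members for Vhl/Hif2a against Vhl/Hif1a, triple against Vhl/Hif1a and triple against Vhl/Hif2a controls, beside 5.44%, 24.4% and 22.1% of all genes. Immediate early genes, such as Fos, Jun and Egr1, are induced within minutes by handling or growth signals, and Myc belongs to the early response in many cells. The summed level of 16 of them was 1048, 2679 and 2085 CPM in Vhl/Hif2a controls 1 to 3 and 4057, 2043 and 3536 CPM in knockouts 1 to 3. The low control and the high knockouts for Myc were thus also the low and high libraries for this sum. In the triple cross the sum was 2272 to 3602 CPM in controls and 2108 to 2588 CPM in knockouts. The Vhl/Hif1a cross had 1392 to 2318 CPM in controls and 1296 to 2259 CPM in knockouts. Between these 2 control groups the sum thus ran the other way from Myc, higher in the triple controls with a slight overlap. Of the 16 genes, 2 were called higher in the Vhl/Hif2a knockout (Ier3 by 2.34 ± 0.40 and Klf2 by 1.23 ± 0.34), beside 7.68% of all genes. The Klf2 call was lost without any of 4 libraries. In the Vhl/Hif1a knockout 1 was called higher (Ier3, 2.09 ± 0.41), beside 2.22% of all genes. The part of this response in the Myc values was not tested.

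**Figure D3:**
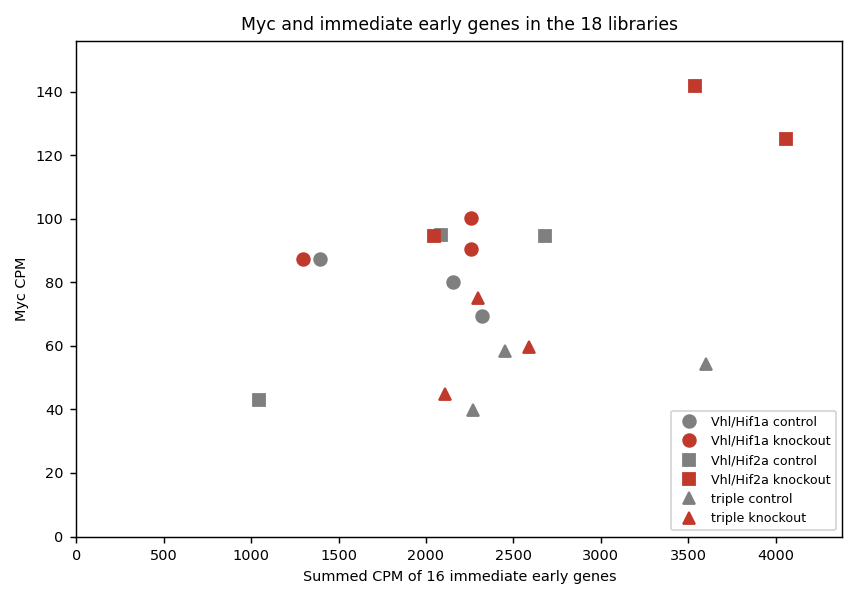
Myc in CPM (vertical axis) against the summed CPM of 16 immediate early genes (horizontal axis), 1 point per library, circles for the Vhl/Hif1a cross, squares for the Vhl/Hif2a cross and triangles for the triple cross, red for knockouts. Vhl/Hif2a knockouts 1 and 3 lie at the upper right, Vhl/Hif2a control 1 at the lower left, and the 6 triple libraries between 39.9 and 75.0 CPM of Myc.

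Max, the shared dimer partner (chromosome 12, 76937269 to 76962201, minus strand), ranged from 50.8 to 66.5 CPM over all 18 libraries. Its differences were -0.11 ± 0.08, 0.15 ± 0.08 and -0.06 ± 0.08 in the Vhl/Hif1a, Vhl/Hif2a and triple comparisons, with edgeR adjusted p-values of 0.68, 0.25 and 0.67. The 3 Vhl/Hif1a knockouts lay between 55.0 and 56.2 CPM, just under the controls at 56.6 to 62.6 CPM. The difference between the Vhl/Hif2a and Vhl/Hif1a effects was 0.26 ± 0.11 (unadjusted p = 0.0361, edgeR adjusted p = 0.41).

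Among the other antagonists, Mxd1 (chromosome 6, 86647042 to 86669161, minus strand), known as Mad1 and linked to cell differentiation, had its highest group level in the Vhl/Hif1a knockout. It stood there at 64.7, 64.4 and 57.3 CPM against 38.9, 46.4 and 56.0 CPM in the controls. The groups did not overlap, but knockout 3 and control 3 were close, and the difference of 0.40 ± 0.17 was not called (unadjusted p = 0.0321, edgeR adjusted p = 0.3). It stayed between 0.28 and 0.55 with any one library of these groups left out. In the Vhl/Hif2a cross Mxd1 was at 35.3 to 51.6 CPM in controls and 36.8 to 54.6 CPM in knockouts, a difference of 0.0069 ± 0.17. The difference between the Vhl/Hif2a and Vhl/Hif1a effects was -0.39 ± 0.24 (95% interval -0.90 to 0.12, edgeR adjusted p = 0.68).

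Mnt (chromosome 11, 74830920 to 74845725, plus strand), a broadly expressed repressor that pairs with Max or Mlx, gave its largest difference in the triple cross. The triple controls stood at 64.3, 98.4 and 57.8 CPM and the knockouts at 58.4, 60.1 and 60.9 CPM. The high value was triple control 2, the library that stood apart, and the other two controls lay on either side of the knockouts. The difference was -0.30 ± 0.14 (unadjusted p = 0.0485, edgeR adjusted p = 0.43), and -0.03 (edgeR adjusted p = 1) without that library. In the double knockouts Mnt differed by 0.09 ± 0.14 and 0.15 ± 0.14. The Vhl/Hif2a effect exceeded the triple effect by 0.44 ± 0.20 (edgeR adjusted p = 0.18), which was called without triple control 3 (0.59, edgeR adjusted p = 0.044) and was 0.18 without triple control 2. Likewise, Mnt in the triple controls exceeded that in the Vhl/Hif2a controls by 0.36 ± 0.14 (edgeR adjusted p = 0.16), a difference called without triple control 3 (0.50, edgeR adjusted p = 0.037) and of 0.09 without triple control 2.

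Mxd3 (chromosome 13, 55325168 to 55329823, minus strand), the family member tied to S phase, was the scarcest member at 4.51 to 10.8 CPM. Triple control 2 again held the highest value, against 6.35 and 6.34 CPM in its group mates. Its differences were 0.07 ± 0.21, -0.17 ± 0.21 and -0.36 ± 0.21 in the 3 comparisons, and the last was -0.06 without triple control 2. Mxd3 was higher in all 3 triple controls than in all 3 Vhl/Hif1a controls (0.61 ± 0.21, edgeR adjusted p = 0.095), by 0.74 (edgeR adjusted p = 0.049) without triple control 3 and by 0.31 without triple control 2. Mxd4 (chromosome 5, 34173883 to 34187720, minus strand) stood at 134.7 to 141.6 CPM in the Vhl/Hif1a knockouts and 121.9 to 127.3 CPM in their controls. These ranges did not overlap, and the difference of 0.13 ± 0.11 was not called (edgeR adjusted p = 0.71). In the Vhl/Hif2a and triple crosses it differed by -0.0063 ± 0.11 and 0.01 ± 0.11. Mxd4 was lower in the triple controls than in the Vhl/Hif1a controls by 0.30 on the log2 scale (-0.30 ± 0.11, edgeR adjusted p = 0.11), and this difference was called without triple control 2 (-0.43, edgeR adjusted p = 0.026).

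Mlx (chromosome 11, 101087277 to 101092207, plus strand) kept within 38.01 to 45.04 CPM in all 18 libraries. Its differences were -0.03 ± 0.07, 0.08 ± 0.07 and -0.06 ± 0.07. All 95% intervals of these lay within -0.21 and 0.24, so the data bound any change of Mlx RNA more tightly than for the other 7 genes.

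Some members overlap other annotated genes. Mxd3 overlaps Prelid1 and Mlx overlaps Psmc3ip at their ends on the opposite strand, and Mxi1, Max, Mxd1 and Mxd4 overlap short predicted or non-coding genes. The library kit preserves strand, but the strand setting of the counting is not given in the sources used here. Fractional counts, whose origin the sources used here do not give, occurred for Mxd3 and Mlx in 18 libraries, Mxd4 in 17 and Mxi1 in 16. Myc, Max, Mxd1 and Mnt had whole counts in every library.

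Levels of different genes were compared per kilobase (kb) of annotated exon. In the Vhl/Hif1a controls Myc was highest at 29.0 ± 3.34 CPM per kb (SD, n = 3), followed by Mlx at 20.2 ± 0.621, Max at 16.7 ± 0.857, Mxd4 at 14.8 ± 0.36, Mnt at 13.7 ± 0.618, Mxi1 at 12.8 ± 1.19, Mxd1 at 6.66 ± 1.21 and Mxd3 at 2.16 ± 0.219 CPM per kb. Neighbours in this order did not overlap, except Mnt and Mxi1. In the Vhl/Hif2a knockout Mxi1 reached 21.8 ± 2.11 CPM per kb, which overlapped Mlx at 21.3 ± 0.608 and lay above Max at 17.1 ± 1.21. Mxi1 in the Vhl/Hif1a knockout, at 19.4 ± 0.816, overlapped Mlx at 19.8 ± 0.715 and was above Mxd4, Max and Mnt. Mxi1 in the Vhl/Hif2a controls stood at 13.3 ± 0.472 CPM per kb, above Mnt at 12.4 ± 0.292 and overlapping Mxd4 at 14.4 ± 1.29. In the triple cross the Myc level of 18.7 ± 3.54 in controls and 22.0 ± 5.53 in knockouts overlapped that of Mlx. Exon length was taken over all annotated transcripts, so a gene that uses a short isoform is understated.

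**Figure D4:**
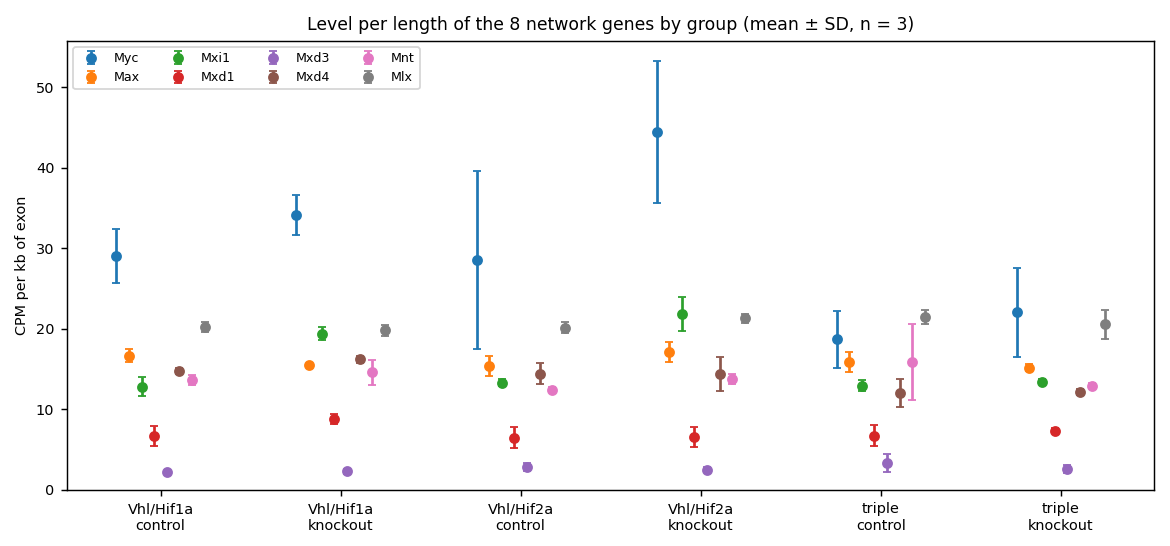
Level per length (vertical axis, CPM per kb of exon, from 0) of the 8 network genes in the 6 groups, as mean and SD over 3 libraries. Mxi1 (green) stands at 12.8 to 13.4 in the controls and the triple knockout and at 19.4 and 21.8 in the double knockouts, level with Mlx (grey).

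The other network genes and the proteins that work with the members were mostly unchanged by the test. Of 7 further network genes 5 were tested. None was called in the Vhl/Hif1a or triple knockout by edgeR or DESeq2 (0 and 1 at an unadjusted p under 0.05). In the Vhl/Hif2a knockout 1 fell, beside 7.01% of all genes called lower. That gene, Mycl, another Myc paralog, is named because its values were seen: it had a mean of 0.495 CPM and fell by 1.48 (edgeR adjusted p = 0.027), a call lost without any of 4 of the 6 libraries. Of 16 cofactors of Myc and the Mxd proteins, 1 was called in the Vhl/Hif2a knockout, where 14.7% of all genes were, so the count says nothing about the cofactors as a group. It was Ruvbl2, an ATPase of the TIP60 and INO80 chromatin complexes, which rose from 31.2 ± 1.46 to 50.8 ± 2.39 CPM (SD, n = 3), or by 0.70 ± 0.14 (edgeR adjusted p = 0.0021). The corepressor genes Sin3a, Sin3b, Hdac1, Hdac2 and Ncor1, through which Mxd proteins act, were not called by edgeR in any knockout comparison (edgeR adjusted p = 0.24 to 0.98). Of 14 genes of Myc protein turnover, Aurka, a mitotic kinase, fell in the Vhl/Hif2a knockout by 0.36 (edgeR adjusted p = 0.025) and the call was lost without any of 4 libraries. It was the 1 turnover gene called there, beside 14.7% of all genes. In the Vhl/Hif1a knockout edgeR called none of the cofactors or turnover genes, with 1 and 2 at an unadjusted p under 0.05 and 0 and 1 called by DESeq2. In the Vhl/Hif2a knockout 3 cofactors and 4 turnover genes had an unadjusted p under 0.05. DESeq2 called 2 cofactors there, 1 of them lower, and 2 turnover genes.

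Genes that Myc is known to activate did not move as one. Of 32 ribosome biogenesis genes, the group most often linked to Myc, 1 (Imp4, 0.23, edgeR adjusted p = 0.03) was called in the Vhl/Hif2a knockout, a call lost without any of 5 libraries. In that comparison 14.7% of all genes were called. None was called in the Vhl/Hif1a knockout by edgeR or DESeq2, with none at an unadjusted p under 0.05. The list medians were -0.06 and 0.05. The summed level was 2218 to 2297 CPM in the Vhl/Hif1a knockouts and 2336 to 2410 CPM in their controls. In the Vhl/Hif2a and triple crosses these ranges overlapped. Of 11 mitochondrial biogenesis genes tested, none was called by edgeR in any knockout comparison. There 0, 1 and 2 of them had an unadjusted p under 0.05, and DESeq2 called 0, 1 and 0.

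Of 28 nucleotide and polyamine synthesis genes, 5 rose and 4 fell in the Vhl/Hif2a knockout, where 7.68% of all genes were called higher and 7.01% lower. Among the rises were the mitochondrial folate enzymes Mthfd1l, from 3.16 ± 1.95 to 21.3 ± 5.95 CPM (2.77 ± 0.30), and Shmt2, from 36.0 ± 4.02 to 73.6 ± 7.38 CPM (1.03 ± 0.13). Impdh1, of guanine nucleotide synthesis, rose by 1.18 ± 0.11 and Odc1, the first enzyme of polyamine synthesis, by 0.37 ± 0.08. Mthfd2, the other mitochondrial folate enzyme on the list, fell by 0.82 (-0.82 ± 0.16, edgeR adjusted p = 0.0015), so the folate genes split in direction. The call of the remaining gene that rose was lost without any of the 6 libraries. Tyms, Umps and Ctps, of pyrimidine synthesis, fell by 0.43, 0.26 and 0.39, by calls lost without at least 1 library. Only 1 of the falls was called without Vhl/Hif2a control 3 and 2 without knockout 1. Impdh1 was also called higher after deletion of Vhl with Hif1a (0.52 ± 0.11, edgeR adjusted p = 0.01), and Umps fell by 0.32, and neither was called without Vhl/Hif1a control 1. That is 1 of the 28 called higher and 1 lower, beside 2.22% and 1.42% of all genes. At an unadjusted p under 0.05 there were 7 of the 28, beside 13.2% of all genes. Their summed level was 1016 to 1103 CPM in the Vhl/Hif1a knockouts and 1115 to 1166 CPM in their controls. In the Vhl/Hif2a and triple crosses these ranges overlapped. The list medians were -0.18 and -0.06.

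Of 15 cell cycle entry genes, Ccne1, E2f2 and E2f3, which drive the start of S phase, fell in the Vhl/Hif2a knockout by 0.66, 0.58 and 0.58 (edgeR adjusted p = 0.0045, 0.0062 and 0.0082). Calls in this list were 3 lower and 1 higher there, beside 7.01% and 7.68% of all genes, and 2 higher in the Vhl/Hif1a knockout, beside 2.22%. The gene called higher in the Vhl/Hif2a knockout was Tfap4, which rose by 0.52 ± 0.17, a call lost without any of 5 libraries. Id2, an inhibitor of helix-loop-helix factors, and Cdk6 rose in the Vhl/Hif1a knockout, by 0.71 ± 0.13 and 0.43 ± 0.11, and the Cdk6 call was lost without any of 5 libraries. Of 19 S phase and mitosis genes, 16 fell in the Vhl/Hif2a knockout (list median -0.50), where 7.01% of all genes were called lower. Plk1 fell by 0.76, Birc5 by 0.63, Ccnb2 by 0.48 and Rrm2 by 0.64 (edgeR adjusted p = 2.5e-05 to 2.7e-04). The count was 10 without Vhl/Hif2a control 1, knockout 1 or knockout 3. Of the 19, 2 were called lower in the Vhl/Hif1a knockout (Ccnb1 and Plk1, median -0.32), beside 1.42% of all genes, and leaving out any one of its 6 libraries left 0 or 1. At an unadjusted p under 0.05 there were 16 of the 19, beside 13.2% of all genes, and DESeq2 called 4. Their summed level was 1013 to 1058 CPM in the Vhl/Hif1a knockouts and 1229 to 1349 CPM in their controls. Between the double knockouts the difference in effect was called for 0 of the 19 by edgeR or DESeq2, with 5 at an unadjusted p under 0.05. In the triple knockout the median was 0.09. The summed level of 6 dendritic cell markers, cells that CD11c selection can retain, was 7.84 to 10.3 CPM in the Vhl/Hif2a knockouts and 19.1 to 46.6 CPM in their controls, and its part in these falls was not tested.

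Among 9 genes that Myc is known to repress, the direction was mixed. In the Vhl/Hif2a knockout 3 were called higher and 2 lower, beside 7.68% and 7.01% of all genes, and in the Vhl/Hif1a knockout 1 was called higher, beside 2.22%. Ndrg1 rose in both double knockouts, from 2.34 ± 0.731 to 6.50 ± 0.545 CPM and from 6.32 ± 1.71 to 49.3 ± 6.07 CPM (1.46 ± 0.21 and 2.96 ± 0.20). Ndrg1 is also a known hypoxia-inducible gene. Cdkn1b, the cell cycle inhibitor p27, rose in the Vhl/Hif2a knockout by 0.72 ± 0.10 (edgeR adjusted p = 7.1e-05) and Ndrg2 by 3.64 ± 0.65, with Ndrg2 at a mean of 0.644 CPM and named after its values were seen. Cdkn2b, the inhibitor p15, fell there by 2.25 (edgeR adjusted p = 7e-04). Gadd45a also fell, a call lost without Vhl/Hif2a knockout 1 or 2.

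Of 4 targets of MondoA with Mlx, Txnip, which restrains glucose uptake, rose in both double knockouts by 0.42 ± 0.11 and 0.51 ± 0.11 (edgeR adjusted p = 0.033 and 0.0033). The call in the Vhl/Hif1a knockout was lost without any of 5 of its 6 libraries, all but control 3. Klf10 rose in the Vhl/Hif2a knockout by 0.33, a call lost without control 3, knockout 1 or knockout 3. Of the 4 targets, 1 was called higher in the Vhl/Hif1a and 2 in the Vhl/Hif2a knockout, beside 2.22% and 7.68% of all genes. Mlx itself differed by -0.03 and 0.08 in these comparisons. In the triple knockout edgeR and DESeq2 called no gene of any of these lists, with 0 to 4 genes per list at an unadjusted p under 0.05 against 11.5% of all genes.

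**Figure D5:**
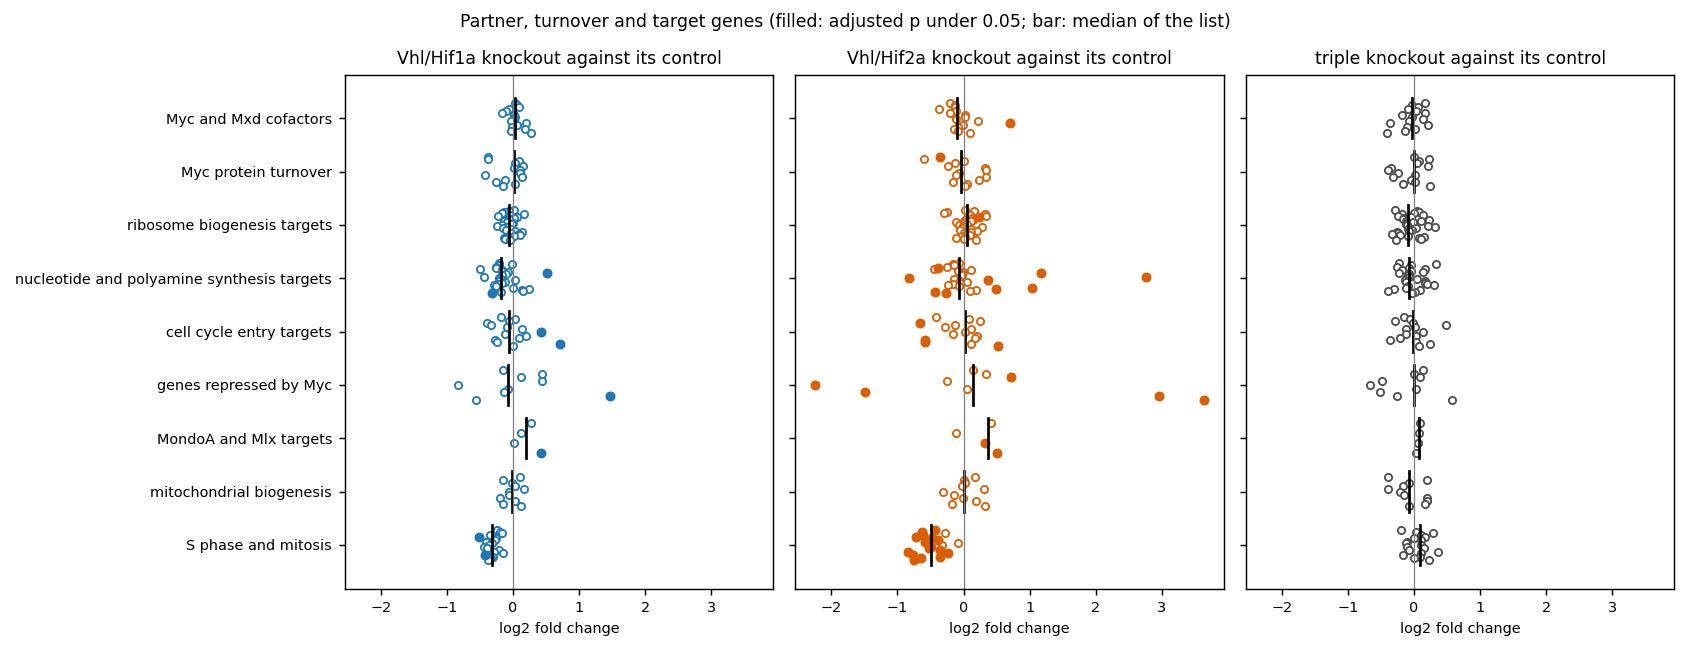
log2 fold change (horizontal axis) of each tested gene of 9 lists in the Vhl/Hif1a (blue), Vhl/Hif2a (orange) and triple (grey) comparisons. Filled points passed the adjusted p of 0.05 and black bars are list medians. S phase and mitosis genes lie below 0 in both double knockouts (medians -0.32 and -0.50), and ribosome biogenesis genes lie around 0.

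The genes whose level followed each member most closely were named by the Pearson correlation of log2(CPM + 1) over the 18 libraries, which share groups and scaling, so it is a description of these libraries. For Mxi1 they were Mlph (r = 0.969), Gm2a (0.969) and Olfml2a (0.967). All 3 rose in both double knockouts, Mlph by 1.80 and 2.59, Gm2a by 1.01 and 0.91 and Olfml2a by 3.67 and 4.44. In the triple knockout their values were 0.32, -0.17 and 0.39 (edgeR adjusted p = 0.46, 0.43 and 0.75). For Myc they were Foxp1 (0.917), Arid5b (0.913) and Slfn2 (0.908), with edgeR adjusted p-values of 0.28 to 0.95 in the knockout comparisons.

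For Mxd4 the closest were Cnnm2 (0.952), Acvr1b and Creb3l2. For Mxd1 they were Snrk (0.864), Sh3d21 and Lix1l, for Max Nbdy (0.82), Wrnip1 and Rasgrp4, and for Mlx Polr2h (0.78), Stkld1 and Crybg2, the last 2 below 0.284 CPM on average. For Mnt they were Map2k2, Zdhhc7 and Rbck1 (0.944, 0.941 and 0.937), and for Mxd3 Atp6v0e, Srd5a3 and Emc6 (0.894, 0.88 and 0.872). These last 2 sets leaned on triple control 2: without it r was 0.795, 0.825 and 0.762 for Mnt and 0.77, 0.725 and 0.705 for Mxd3. For the other members the values moved by little, such as 0.97 for Mlph and 0.916 for Foxp1.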

How the data were processed

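RNA was sequenced from 18 libraries of alveolar macrophages in 6 groups of 3. The deposited table holds expected counts per gene, made by the authors with FastQC, cutadapt and STAR on GRCm38, per the submitters' processing notes. For the counting program, annotation, strand setting and versions, no source used here gives a name. Of the deposited values 89.25% were whole, and the rest were rounded before testing.

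The groups were taken from the labels. Genes with low counts were removed by filterByExpr, which kept 12900 of 32789 genes and 99.967% of counts. Libraries were scaled by TMM, and one edgeR 4.0.16 quasi-likelihood model (R 4.3.3) was fitted to all 18 libraries without covariates. P-values were adjusted by Benjamini-Hochberg over the 12900 genes in each of 9 comparisons, with a threshold of 0.05, and 95% intervals used the model's degrees of freedom. CPM (counts-per-million) values were TMM-scaled, and logs used a pseudocount of 1. The scripts were tested on simulated data.

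The members and gene lists were chosen with earlier results of these data known. From each list the called genes with the lowest adjusted p were named, up to 4 in each direction and comparison, with a mean of at least 1 CPM. Each member's 3 most correlated genes were named too. Alternatives were RLE scaling, DESeq2 1.42.0, no filter beyond 1 count, no rounding, only the groups compared, a replicate block, a pseudocount of 0.1 and leaving out each library. Correlations without triple control 2 were added after seeing the data. Positions and promoter windows were read with pandas 2.3.3 and numpy 2.4.6 from GENCODE M21 and RefSeq tables.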

Additional observations from a re-analysis of the deposited data

Results flagged for a closer look

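The effect of the knockout on Mxi1 differed between crosses by a direct test of the difference. The Vhl/Hif2a effect exceeded the triple effect by 0.66 on the log2 scale (edgeR adjusted p = 0.0016), and this was called in 18 of 18 alternatives. The Vhl/Hif1a effect exceeded the triple effect by 0.54 (edgeR adjusted p = 0.02), and this was called in 12 of 18 alternatives. Mxi1 was higher than every control of its cross in 6 of 6 double-knockout libraries.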

How the results depend on the processing

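The Mxi1 rise was called in 12 of 12 alternatives in each double knockout, and 593 of 636 alternative values for members kept their direction and side of the threshold. In the knockout comparisons, with 3 libraries a group, no Myc difference was called, at a standard error of 0.25 for Myc against 0.08 for Mxi1. Mxd3, the scarcest member, had the lowest counts, at 107 to 260 per library. Its standard error in the knockout comparisons was 0.21, below that of Myc. The cause of the changes below was not tested. DESeq2 called 11 genes in the triple knockout, 492 for the Vhl/Hif2a minus Vhl/Hif1a effect, 479 for Vhl/Hif1a minus triple, and 88, 1293 and 983 between Vhl/Hif2a and Vhl/Hif1a, triple and Vhl/Hif1a, and triple and Vhl/Hif2a controls. Only the groups compared gave 2 in the triple knockout, 680 for Vhl/Hif2a minus triple, and 66 and 17 between triple and Vhl/Hif1a or Vhl/Hif2a controls. Leaving out 1 library gave 275 to 360 genes in the Vhl/Hif1a knockout, 1249 to 1639 in the Vhl/Hif2a knockout, 3 to 4 in the triple knockout, 675 to 1390 for Vhl/Hif2a minus triple, 161 to 401 for Vhl/Hif1a minus triple, and 18 to 32, 211 to 1187 and 141 to 858 in the control comparisons. Members called were then 1 to 2 for Vhl/Hif2a minus triple, 0 to 1 for Vhl/Hif1a minus triple, and 0 to 1 for triple against either other control.

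Small member differences changed sign with 1 library left out: Mxd3 in the Vhl/Hif1a knockout (-0.027 to 0.13), Mxd1 (-0.15 to 0.15) and Mxd4 (-0.075 to 0.11) in the Vhl/Hif2a knockout, and Max (-0.11 to 0.0016) and Mxd4 (-0.066 to 0.14) in the triple knockout. So did Mnt for Vhl/Hif2a minus Vhl/Hif1a (-0.028 to 0.12), Myc (-0.18 to 0.19) and Max (-0.11 to 0.0046) for Vhl/Hif1a minus triple, Myc (-0.20 to 0.26) and Mxd4 (-0.093 to 0.034) for Vhl/Hif2a against Vhl/Hif1a controls, Mnt (-0.049 to 0.36) for triple against Vhl/Hif1a controls and Mxd3 (-0.072 to 0.37) for triple against Vhl/Hif2a controls. Mxd1 in the Vhl/Hif2a knockout was -0.0040 with only the groups compared, and Mxd4 was 0.0093 with no filter. Myc for Vhl/Hif1a minus triple was 0.0022 with RLE, 0.0019 with DESeq2 and 0.0030 with no filter.

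Libraries with the same replicate number correlated at -0.291 to 0.234 in their deviations from group means, so the numbers were not taken to pair the libraries, and not every knockout library correlated best with its own number. With the replicate block, 194 genes were called for Vhl/Hif2a minus Vhl/Hif1a and 150 for Vhl/Hif1a minus triple, where 0 members were called (Mxi1, edgeR adjusted p = 0.067) and Myc was 0.0091. The block gave 10 S phase and mitosis genes lower in the Vhl/Hif2a knockout against 16, and 313 genes in the Vhl/Hif1a knockout.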
